A study of Rattus norvegicus with 4 samples.

Results

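The genes described here build, bundle and contract actin filaments, or are known targets of serum response factor (SRF). The 35 genes were chosen by name, with earlier results of these data known. They comprise actins, filament crosslinkers, tropomyosins, transgelins and calponins, myosin chains, monomer-binding and severing proteins, and SRF with LIM and Z-disc proteins. Of these, 32 had at least 1 probe set that carries their symbol alone, among 14217 such genes on the array, and each was read from its brightest probe set over the 4 arrays. The brightest probe set passed the filter on dim probe sets for 29 of the 32, among 10035 named genes tested. Cnn1, Actg2 and Lmod1 lay below the filter, and Actb, Cfl1 and Myl6 had no probe set of their own.

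The cells measured were Sertoli cells of male Sprague-Dawley rats at 20 days of age, held in serum-free Ham's F-12 medium at 72 h of culture. The control group received no treatment and the other group received cAMP, with 2 arrays per group. Neither its dose nor which form was used is given in the sources used here. The labels call the arrays of a group biological replicates without naming separate preparations, so p-values measure the spread between these arrays, which may be partly technical.

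Actin monomers assemble into filaments that tropomyosins and caldesmon coat, that alpha-actinins, filamin and espin crosslink, and that bipolar myosin II filaments pull on. SRF binds a DNA element called the CArG box in the promoters of many of these genes, and its cofactors of the MRTF family are held in the cytoplasm by free actin monomers. In Sertoli cells, bundled actin lines the ectoplasmic specialisations, the adhesions to neighbouring Sertoli cells and to spermatids. Signalling through cAMP is long known to change the shape of cultured Sertoli cells and their stress fibres.

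Promoters that hold a CArG box are shown first, because SRF and several of its targets are among the genes measured. RefSeq promoter windows of 250 bases before to 50 after a transcription start (assembly GRCr8) were found for 29 of the 35 genes. A CArG box was searched as CC, then 6 bases that are each A or T, then GG, which reads as a box on both strands. It was found in 6 of the 35 windows of these genes, standing for 5 genes, against 1.64% of all 33469 windows. The 100 bases from 120 to 21 before the start are printed 5′ to 3′ on the gene's strand, with the box in capitals.
Srf (chr9:21923956-21924055, plus strand): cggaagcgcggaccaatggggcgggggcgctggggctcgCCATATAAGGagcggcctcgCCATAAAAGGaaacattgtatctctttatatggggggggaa
Fhl2, first start (chr9:52954561-52954660, minus strand): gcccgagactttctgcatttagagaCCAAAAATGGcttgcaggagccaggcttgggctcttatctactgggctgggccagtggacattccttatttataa
Fhl2, second start (chr9:52923347-52923446, minus strand): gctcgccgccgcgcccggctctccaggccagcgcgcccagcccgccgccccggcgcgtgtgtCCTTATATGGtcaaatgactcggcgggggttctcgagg
Actg1 (chr10:106120972-106121071, minus strand): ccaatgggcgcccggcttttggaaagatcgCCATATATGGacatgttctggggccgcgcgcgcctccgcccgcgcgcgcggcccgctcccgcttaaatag
Fhl1, first start (chrX:139638376-139638475, plus strand): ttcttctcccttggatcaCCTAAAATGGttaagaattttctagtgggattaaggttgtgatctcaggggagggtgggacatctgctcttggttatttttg
Cnn2 (chr7:10370333-10370432, minus strand): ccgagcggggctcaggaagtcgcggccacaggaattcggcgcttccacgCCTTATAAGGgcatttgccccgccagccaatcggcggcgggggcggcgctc
Srf holds a pair of boxes, which begin 81 and 61 bases before the start. Both Fhl2 windows hold 1 box, at 95 and 58 bases before their start, and those of Actg1, Fhl1 and Cnn2 hold 1 each. Of these 5 genes, Srf and Fhl2 fell with cAMP, and Actg1, Fhl1 and Cnn2 did not pass the test. Of the members with a window, 10 had passed the test and 2 of these hold a box. Another 15 had been tested without passing and 3 of these hold one. No window was found for 6 members, among them Tagln, Myl9 and Actn4, which fell, and Myh11, so these could not be searched.

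**Figure D1:**
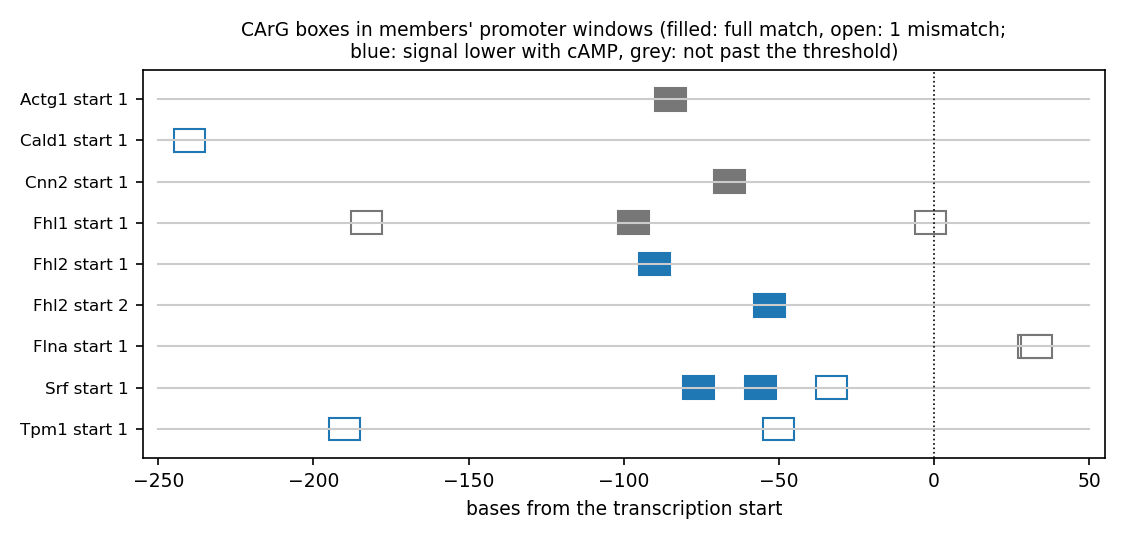
Position of CArG boxes along the promoter windows, with bases from the transcription start on the x axis and 1 window per row. Filled boxes match in full and open boxes have 1 mismatch in CC or GG, blue marks genes that fell with cAMP and grey those that did not pass; each full match lies between 102 and 49 bases before a start.

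With exactly 1 mismatch in the CC or GG, 5 of the 35 windows had a match, those of Cald1, Tpm1, Srf, Fhl1 and Flna, against 13.3% of all windows. The cAMP response element, TGACGTCA, read the same on both strands, was present in the window of Myl6 alone, against 1.83% of all windows. Its core TGACG was sought on both strands, so that a full element holds a pair of overlapping cores. It lay in 12 of the 35 windows, against 21.2% of all windows. A match describes the letters of the window and does not show that a factor binds there.

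Most members that passed the test fell with cAMP. The signals are MAS5 intensities, and a difference is cAMP minus control on the scale of log2(signal + 16), ± its standard error, with n = 2 arrays per group. A gene was called where the adjusted p by limma over all probe sets tested lay under 0.05, and rose and fell refer to that threshold. Of the 29 members tested, 12 fell, 1 rose and 16 did not pass. Among all named genes tested 7.16% fell and 8.27% rose, together 15.4%. The median difference of the members was -0.37, beside -0.03 for all named genes tested. Without control replicate 1 the members' median was -0.17 and without control replicate 2 it was -0.60. In 23 of the 29 the difference was negative, against 52.9% of named genes. The arrays of the groups did not overlap for 18 of the 29, which is close to the 61.4% of all named genes tested. In 17 of the 29 both cAMP arrays lay below both controls, against 32.6% of named genes. As the members were chosen with earlier results of these data known, these shares are given for scale and are not a test. In bulk RNA, fewer cells of a type and less RNA per cell cannot be told apart.

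**Figure D2:**
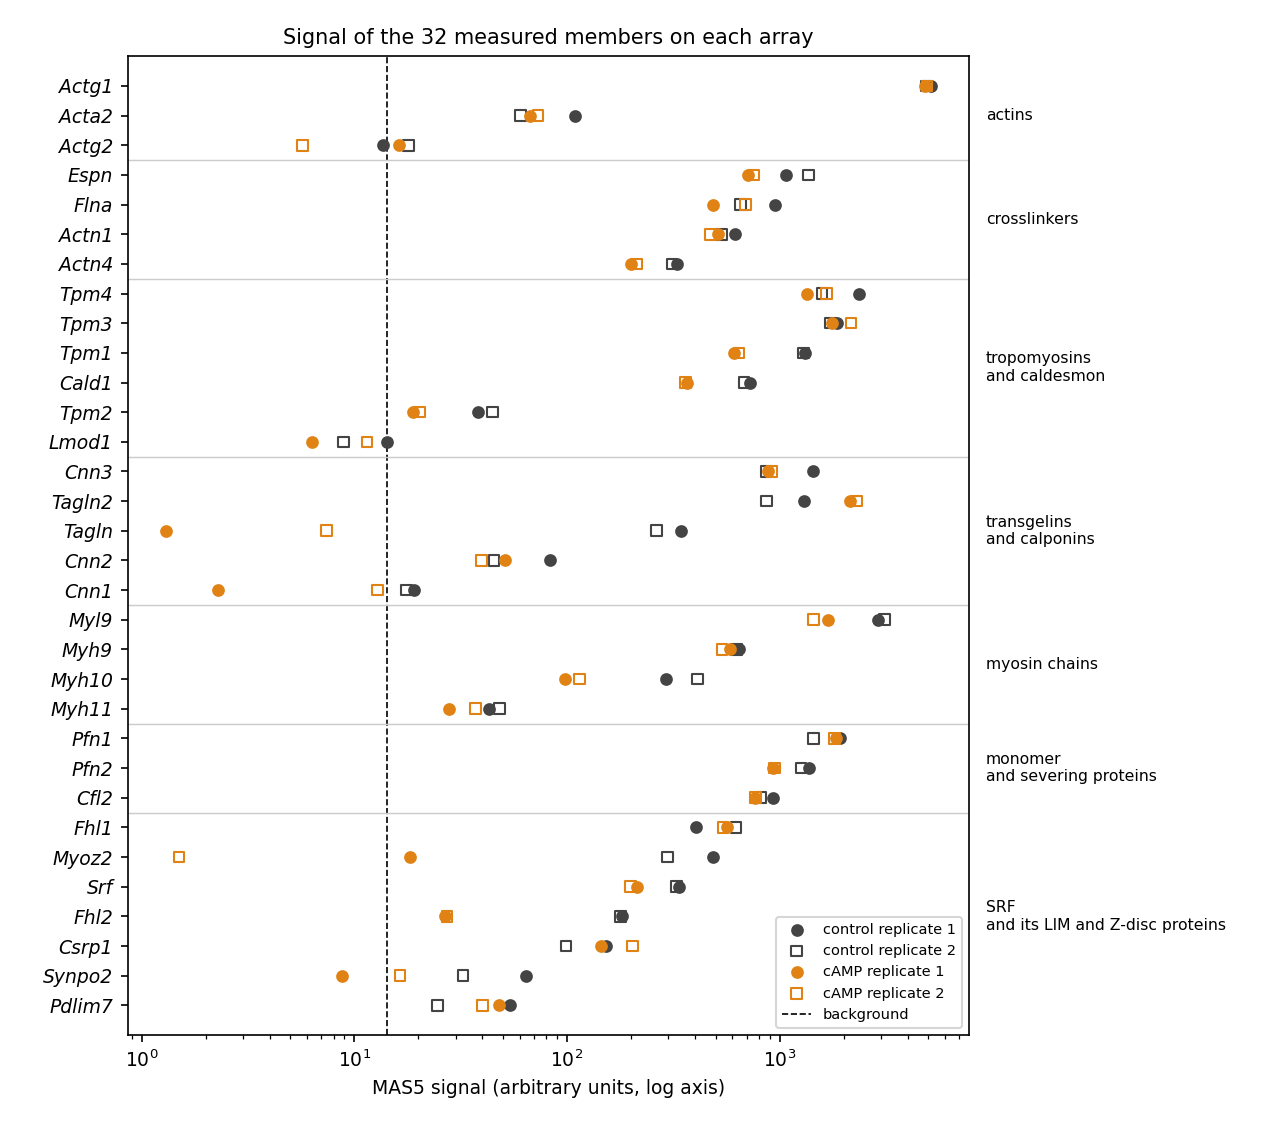
Signal of each measured member on the 4 arrays, on a log axis in arbitrary units, grouped by role, with control arrays in black, cAMP arrays in orange and the background of 14.2 as a dashed line. Tagln and Myoz2 drop from above 260 on both control arrays to below 20 on both cAMP arrays, whereas Actg1 stays between 4805 and 5132.

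The control arrays differed from each other in part of the members. In 23 of the 29 tested members the signal of control replicate 2 was below that of control replicate 1. The share among all named genes tested was lower, 56.0%. With 2 control arrays, it cannot be told which of them departs. RNA integrity can be read from the array's beta-actin control probe sets, whose 3′ signal over 5′ signal came to 1.80 in control replicate 1, 2.25 in control replicate 2, 1.86 in cAMP replicate 1 and 1.64 in cAMP replicate 2. The same ratio of the GAPDH control probe sets was 0.966, 0.903, 0.930 and 0.937 in that order, with control replicate 2 the lowest. The part of RNA integrity in the results was not tested. Of the 10 Sertoli cell markers with a probe set, all 10 were above background on both groups' arrays, with a summed signal of 27789 and 29655 in controls and 30194 and 30332 with cAMP. The sums do not mean that each marker held its level, as 3 of the 10 rose and 1 fell. Inha, the inhibin alpha subunit, went from 951.6 and 1243 to 4345 and 4733 (2.04 ± 0.15), and passed with any 1 array left out. Dhh, the desert hedgehog ligand (0.74 ± 0.14), and Shbg (0.69 ± 0.18) rose and Aard fell (-0.51 ± 0.13). The calls of these last 3 were lost without cAMP replicate 1 (adjusted p = 0.160, 0.338 and 0.179) and without cAMP replicate 2 (0.180, 0.131 and 0.378), and those of Shbg and Aard also without control replicate 2 (0.0587 and 0.0524).

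The actins showed no call. Actg1, the cytoplasmic gamma actin, read 5132 and 4898 in controls and 4805 and 4931 with cAMP, a difference of -0.04 ± 0.10. A second, much dimmer Actg1 probe set read 64.5 and 20.7 in controls and 73.2 and 78.8 with cAMP (0.76 ± 0.35) and did not pass. The sign of Actg1 changed under quantile normalization and with the mean of its probe sets, where the difference was 0.36, without a call. Acta2, the smooth muscle alpha actin, read 109.6 and 60.6 without and 67.1 and 73.2 with cAMP (-0.19 ± 0.26, adjusted p = 0.687). Both cAMP values of Acta2 lay between the control values. Leaving out control replicate 2 moved the difference of Acta2 to -0.54, and leaving out control replicate 1 moved it to 0.17. Actg2, the enteric smooth muscle actin, was at or near background, with 13.7 and 18 in controls and 16.2 and 5.7 with cAMP. Neither tested actin had an unadjusted p under 0.05. For Actb, the cytoplasmic beta actin, the array's 3′ control probe set read 5343 and 4067 in controls and 4778 and 5436 with cAMP, and the groups overlapped. The brightest probe sets that Actb shares with Actg1 overlapped as well and are given no gene.

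Among the crosslinkers, Espn and Actn4 fell. Espn, which bundles actin at the ectoplasmic specialisation, read 1075 and 1366 in controls and 706.8 and 751.0 with cAMP (-0.72 ± 0.15, adjusted p = 0.0212). Actn4, a non-muscle alpha-actinin, went from 329.4 and 311.8 to 199.4 and 212.8 (-0.60 ± 0.15, adjusted p = 0.0393). In both genes every cAMP array lay below every control array, as in 32.6% of all named genes tested. Its relative Actn1 read 614.5 and 532.1 in controls and 511.0 and 473.5 with cAMP and did not pass (-0.21 ± 0.14). Flna, filamin A, which joins filaments into networks, read 950.0 and 655.0 without and 485.9 and 689.5 with cAMP (-0.44 ± 0.23), and its groups overlapped. Its difference was -0.70 without control replicate 2, -0.17 without control replicate 1 and -0.19 without cAMP replicate 1. Espn and Actn4 did not pass without cAMP replicate 1 (adjusted p = 0.206 and 0.310) or without cAMP replicate 2 (0.147 and 0.234).

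Tropomyosins lie along the filament and set which myosins and severing proteins reach it. Tpm1 fell from 1322 and 1296 to 611.3 and 644.6 (-1.04 ± 0.12, adjusted p = 0.00196), 48.0% of the control mean. The control arrays differed by less than 30 signal units, and both lay far above the cAMP arrays. Caldesmon (Cald1), which holds back actomyosin, fell from 721.9 and 680.6 to 368.0 and 360.3 (-0.92 ± 0.13, adjusted p = 0.00484). Tpm2, the beta tropomyosin, was dim at 38 and 44.8 in controls and 18.9 and 20.3 with cAMP, and missed the threshold (-0.69 ± 0.20, adjusted p = 0.0701), though it passed without the intensity trend (0.0478). Tpm4 read 2365 and 1579 in controls and 1347 and 1656 with cAMP, so 1 cAMP array lay within the controls (-0.37 ± 0.20). Without control replicate 2 the difference of Tpm4 was -0.66 and passed (adjusted p = 0.0183). Tpm3 read 1860 and 1739 in controls and 1765 and 2162 with cAMP (0.12 ± 0.14), and the difference ranged from -0.03 without cAMP replicate 2 to 0.26 without cAMP replicate 1. Lmod1, a leiomodin that nucleates filaments in smooth muscle, did not exceed background on any array. With the mean of all its probe sets Tpm1 had -0.36 and did not pass (adjusted p = 0.214). Cald1 did not pass without cAMP replicate 1 (adjusted p = 0.0771) or without cAMP replicate 2 (0.0788).

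**Figure D3:**
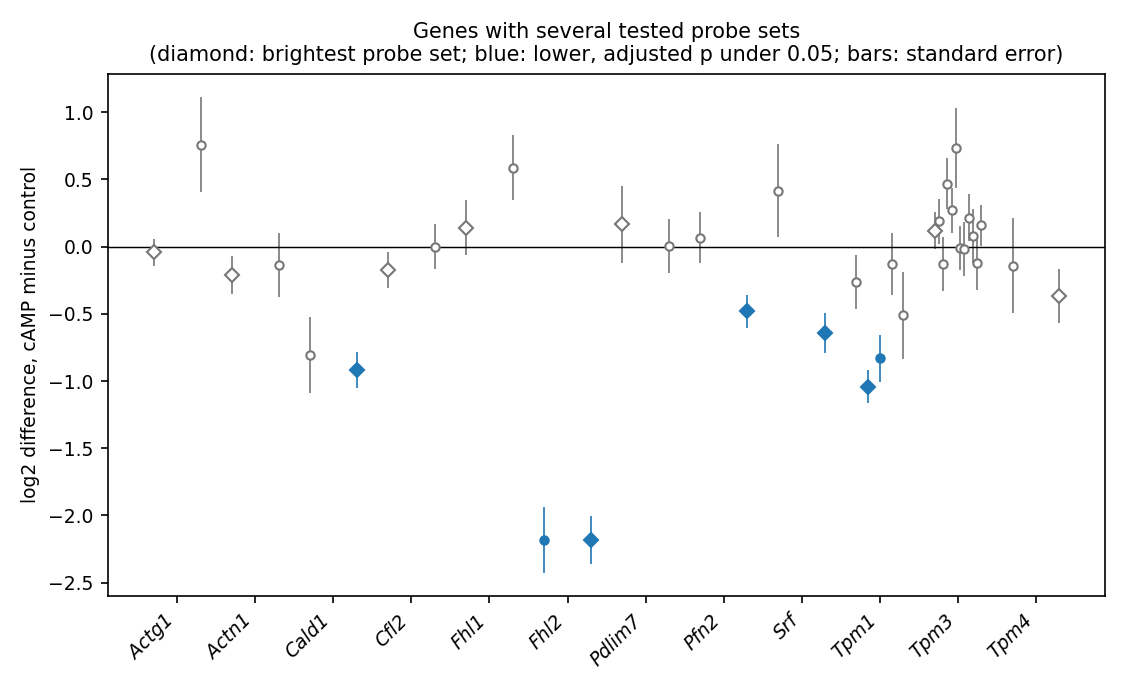
Log2 difference, cAMP minus control, of every tested probe set in the 12 members with more than 1, with standard errors; diamonds mark the brightest probe set of a gene and blue a fall past the threshold. Both Fhl2 probe sets lie near -2.2, while the 12 of Tpm3 spread from -0.13 to 0.73 with none past it.

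Other probe sets of the same genes gave a second reading. The 67 probe sets of the members included 54 that were tested, 25 of them beside the brightest ones. Of these 25, 2 fell and none rose, against 13.7% called in either direction among all tested probe sets. The 2 were a second Fhl2 probe set, at 142.5 and 97.9 in controls and 17.1 and 10.5 with cAMP (-2.18 ± 0.24), and a second Tpm1 probe set, at 624.2 and 507.7 and then 276.7 and 345.7 (-0.83 ± 0.17). The other 3 tested Tpm1 probe sets, all dimmer, had differences of -0.51 ± 0.32, -0.13 ± 0.23 and -0.27 ± 0.20 and did not pass. Tpm1 is spliced into many forms, and the files do not say which form each probe set reads. Among members that fell, the second tested probe sets of Pfn2 (0.07 ± 0.19) and Srf (0.42 ± 0.34) differed in sign from the brightest one. Neither passed. Of the members not called, Actg1 had a second probe set of the other sign (0.76 ± 0.35), as did Cfl2 (0.00029 ± 0.17). Some dimmer probe sets of Tpm3 differed in sign as well. The second tested Fhl1 probe set had 0.59 ± 0.24, and none of these passed. The second tested Cald1 probe set had -0.81 ± 0.28 and did not pass. A probe set whose platform symbol repeats Myh9 was counted among those with several symbols and is not part of the 54. It read 105.7 and 79.5 in controls and 55.9 and 73.1 with cAMP (-0.43 ± 0.22) and did not pass.

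The transgelins and calponins share a calponin homology domain and bind actin filaments. Tagln, known as SM22 alpha, read 344.5 and 264.3 in controls and 1.3 and 7.4 with cAMP. Both cAMP arrays lay below the background of 14.2, the highest of 27 bacterial control probe sets, so the fall is given as at least 21.2-fold (-3.98 ± 0.24, adjusted p = 0.000125). Tagln2, the form found outside muscle, moved the other way, from 1297 and 865.1 to 2149 and 2303 (1.06 ± 0.19, adjusted p = 0.0114). It was the only tested member that rose. Cnn3, the acidic calponin, read 1427 and 863.6 in controls and 880.1 and 921.4 with cAMP (-0.30 ± 0.22). Both cAMP arrays of Cnn3 lay between the controls, and the difference was -0.66 and passed without control replicate 2 (adjusted p = 0.00779). Cnn2 read 82.8 and 45.4 in controls and 50.9 and 39.7 with cAMP (-0.35 ± 0.27). Leaving out control replicate 2 gave -0.69 for Cnn2, and leaving out control replicate 1 gave -0.0084. Cnn1, the smooth muscle calponin, was just above background in controls, at 19.2 and 17.6, and below it with cAMP, at 2.3 and 12.9. Tagln passed with any 1 array left out, with the adjusted p at most 0.00259, while Tagln2 did not pass without cAMP replicate 1 (0.0904) or without cAMP replicate 2 (0.109).

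Myosin II is a hexamer of heavy chains with regulatory and essential light chains. Myl9, a regulatory light chain whose phosphorylation switches the motor on, fell from 2895 and 3100 to 1682 and 1443 (-0.94 ± 0.12, adjusted p = 0.00344). Myh10, the heavy chain of non-muscle myosin IIB, fell from 293.5 and 410.9 to 98.0 and 114.8 (-1.57 ± 0.20, adjusted p = 0.00289), 30.2% of the control mean. Myh9, the heavy chain of myosin IIA, read 642.0 and 627.0 in controls and 582.1 and 535.4 with cAMP (-0.18 ± 0.13). The smooth muscle heavy chain Myh11 was dim, at 43.2 and 48.3 in controls and 27.9 and 37.2 with cAMP (-0.35 ± 0.21). For all 4 chains the cAMP arrays lay below the controls, against 32.6% of all named genes tested, and Myh9 and Myh11 did not pass. Myh10 passed with any 1 array left out, with the adjusted p at most 0.0433. Myl9 did not pass without cAMP replicate 2 (adjusted p = 0.0704).

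Profilins feed actin monomers to growing ends and cofilins sever old filaments. Pfn2 fell from 1380 and 1258 to 931.6 and 945.1 (-0.48 ± 0.12, adjusted p = 0.0422). Pfn1 read 1925 and 1440 in controls and 1848 and 1807 with cAMP (0.13 ± 0.16). Without control replicate 1 the difference of Pfn1 was 0.34 and passed (adjusted p = 0.0420), and without control replicate 2 it was -0.07. Cfl2, the muscle form of cofilin, read 926.1 and 817.2 in controls and 768.6 and 769.5 with cAMP (-0.17 ± 0.13). Pfn2 did not pass without cAMP replicate 1 (adjusted p = 0.321) or without cAMP replicate 2 (0.296), with the replicate number as a block (0.0532), or with the mean of its probe sets, where the difference was -0.21 (0.406).

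Of the 7 tested members in the group of SRF with LIM and Z-disc proteins, 4 fell, among them Srf, and 3 did not pass. Among all named genes tested 7.16% fell. Srf went from 336.7 and 326.7 to 214.0 and 199.4 (-0.64 ± 0.15, adjusted p = 0.0297), 62.3% of the control mean. Fhl2, a LIM protein that binds SRF and is itself a target, fell from 180.7 and 178.4 to 26.7 and 27.3 (-2.19 ± 0.18, adjusted p = 0.000427), 15.0% of the control mean. The arrays within each group differed by less than 3 units. Myoz2, which ties alpha-actinin to calcineurin at the muscle Z-disc, read 486.4 and 296.1 in controls and 18.2 and 1.5 with cAMP (-4.02 ± 0.36, adjusted p = 0.000597). As 1 of its cAMP arrays lay below background, the size of its difference is uncertain. Synpo2, an actin-bundling protein of the Z-disc, was dim and fell from 64.1 and 32.5 to 8.8 and 16.4 (-1.14 ± 0.29, adjusted p = 0.0451). The size of that difference is uncertain too, with 1 cAMP array below background.

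The remaining members of that group did not pass. Fhl1, a close relative of Fhl2, read 402.7 and 622.3 in controls and 566.6 and 542.3 with cAMP (0.14 ± 0.21), and both cAMP arrays lay between the controls. Csrp1, a LIM protein of smooth muscle and fibroblasts, read 152.1 and 98.9 in controls and 144.9 and 203.3 with cAMP (0.43 ± 0.25). Pdlim7, which binds tropomyosin, read 53.9 and 24.7 in controls and 47.9 and 40 with cAMP (0.17 ± 0.29). The control arrays of these 3 genes differed more from each other than the group means did. Without control replicate 1 their differences were -0.16, 0.71 and 0.56, and without control replicate 2 they were 0.45, 0.16 and -0.22. Fhl2 and Myoz2 passed with any 1 array left out, with the adjusted p at most 0.0105 and 0.00350. Srf had -0.11 with the mean of its probe sets and did not pass (adjusted p = 0.727), nor without cAMP replicate 1 (0.206) or cAMP replicate 2 (0.267), and Synpo2 did not pass without control replicate 1 (0.0871), cAMP replicate 1 (0.281) or cAMP replicate 2 (0.126).

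**Figure D4:**
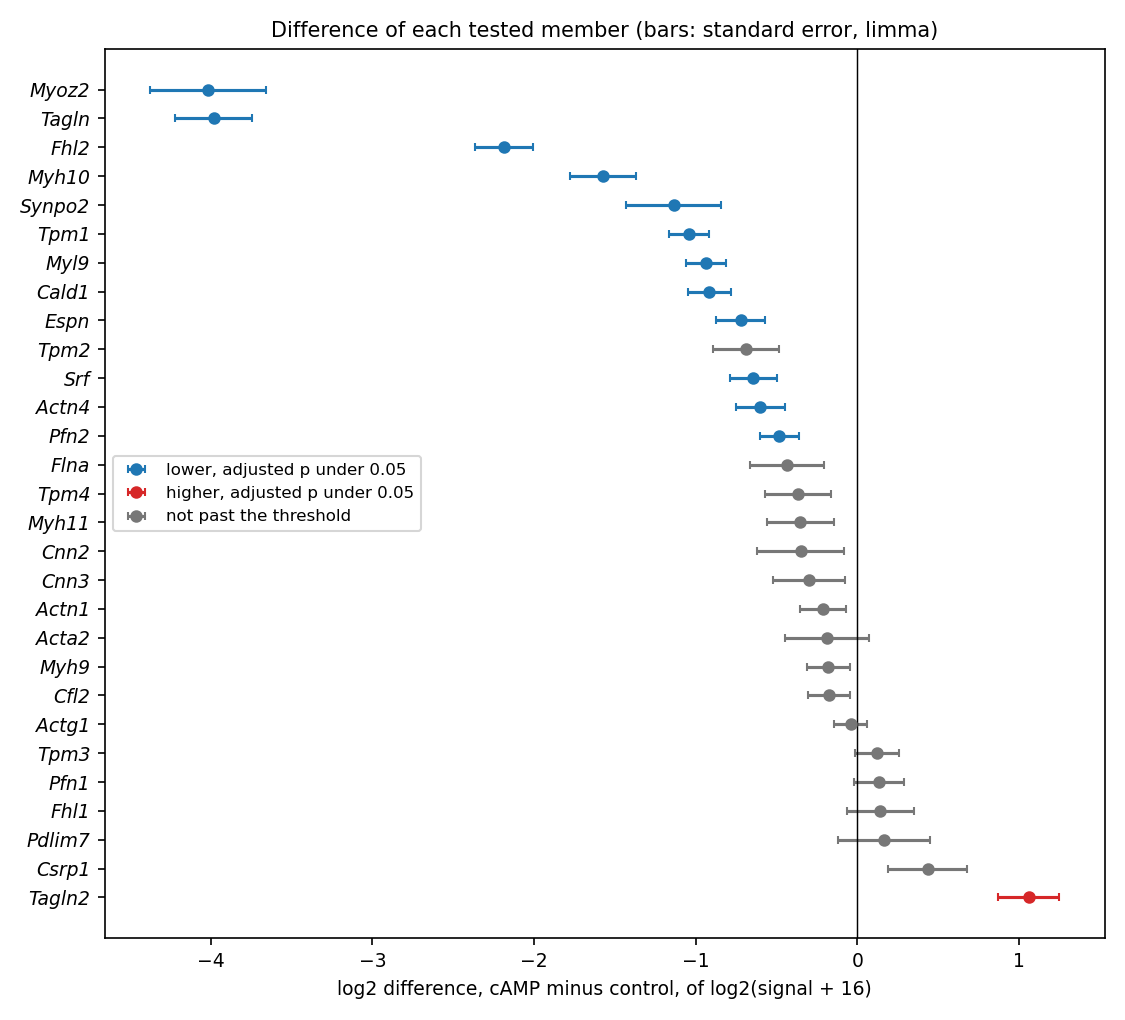
Log2 difference, cAMP minus control, of the 29 tested members in rising order, with bars for the standard error; blue genes fell, the red gene rose and grey genes did not pass. The 12 falls run from -4.02 for Myoz2 to -0.48 for Pfn2, and Tagln2 at 1.06 is the sole rise.

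Many members are also markers of peritubular myoid cells, the contractile cells around the tubule, which could be present in these cultures. Of 10 myoid markers 7 are members. Over all 10 the summed signal was 753.5 and 576.1 in controls and 396.3 and 473.0 with cAMP. Without Tagln, the other 9 markers summed to 409.0 and 311.8 in controls and to 395.0 and 465.6 with cAMP. Such sums do not mean that each marker held its level. Of the 7 markers tested, Tagln and Synpo2 fell, and Des and Mylk rose. Acta2 (-0.19), Myh11 (-0.35) and Smtn (-0.43) did not pass, and the median of the 7 was -0.35. Among all named genes tested 7.16% fell and 8.27% rose. The 3 that are not members, Des, Smtn and Mylk, summed to 145.0 and 125.9 in controls and to 266.4 and 308.7 with cAMP. Of these 3, Des, the muscle intermediate filament desmin, rose (1.15 ± 0.20), as did Mylk, the myosin light chain kinase (1.14 ± 0.19), while Smtn read -0.43 ± 0.24 and did not pass. The calls of Des and Mylk were lost without cAMP replicate 1 (adjusted p = 0.0774 and 0.0863) and without cAMP replicate 2 (0.121 and 0.114). Of 7 fibroblast markers, 6 were above background on at least 1 control array, and all 7 summed to 118.4 and 119.4 in controls and to 533.4 and 478.1 with cAMP. Dcn alone, the proteoglycan decorin, read 1.9 and 17.1 in controls and 465.5 and 381.7 with cAMP. It rose (4.17, adjusted p = 0.000264), though with 1 control array below background the size is uncertain. The other 6 summed to 116.5 and 102.3 in controls and to 67.9 and 96.4 with cAMP. Of these, Col1a1 and Col1a2 were tested and did not pass, and 4 lay below the filter on dim probe sets. Of 4 endothelial markers with a probe set, 2 were above background, with a sum of 229.5 and 155.6 in controls and 91.2 and 88.3 with cAMP, mostly from the receptor gene Kdr. Kdr fell (-1.23, adjusted p = 0.00972), a call that was lost without either cAMP array. With the mean of its probe sets Kdr had -0.53 and did not pass (adjusted p = 0.0587). Leydig cell and macrophage markers summed to at most 133.1 on any array. The germ cell markers summed to 3167 and 2959 in controls and 2947 and 2187 with cAMP, mostly from Sycp3. The part of these cells in the members' differences was not tested.

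Other genes of the actin system were read from 5 lists, with 81 different genes tested, of which 16 fell and 8 rose. Among all named genes tested 7.16% fell and 8.27% rose, together 15.4%. Of 18 tested SRF cofactors and further SRF targets, 5 fell, 1 rose and 12 did not pass, with a median of -0.42. That median was -0.25 without cAMP replicate 1, and over all 13 alternatives it ran from -0.77 with the stricter filter to -0.18 with the mean of a gene's probe sets. Ccn2, a matricellular growth factor and SRF target, read 2348 and 1768 in controls and 97.8 and 123.0 with cAMP (-4.03 ± 0.19). Supervillin (Svil), which links myosin II to the membrane, fell from 384.6 and 362.5 to 60.8 and 111.6 (-1.98 ± 0.25). Vcl, vinculin of the adhesion plaque, fell from 3389 and 3899 to 1745 and 1580 (-1.12 ± 0.12). Filip1l (-1.13 ± 0.19) and Ccn1 (-1.13 ± 0.27) fell too, and Des was the gene that rose. Mrtfa, the SRF cofactor that free actin restrains, read 59.1 and 40.3 in controls and 72.6 and 94.3 with cAMP and did not pass (0.60 ± 0.23, adjusted p = 0.134). Without cAMP replicate 1 and likewise without cAMP replicate 2, Ccn2, Svil and Vcl passed, 3 lower genes.

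The Arp2/3 complex and its activators build branched filament networks. Of 18 tested genes 4 rose, 1 fell and 13 did not pass, with a median of 0.15, which was 0.08 without cAMP replicate 2. Over all named genes tested 8.27% rose and 7.16% fell. Cttn, cortactin, which holds branches in place, rose from 973.2 and 909.3 to 1480 and 1759 (0.77 ± 0.14). Wasf1 (0.92 ± 0.15), the GTPase gene Rac1 (0.63 ± 0.12) and the subunit gene Arpc1b (0.64 ± 0.16) rose, and Nckap1, a subunit of the WAVE complex with Wasf1, fell (-0.60 ± 0.11). None of these 5 calls by limma held without cAMP replicate 1, where 5 genes were higher and 2 lower at an unadjusted p under 0.05, or without cAMP replicate 2, where 3 were higher and 1 lower. Of 16 tested capping, severing and monomer-binding proteins 1 rose and 15 did not pass, with a median of 0.25, which came to 0.44 when control replicate 1 was left out and to 0.07 when control replicate 2 was. The gene that rose was Cotl1, coactosin, which competes with cofilin on filaments, from 117.3 and 87.3 to 692.2 and 628.4 (2.53 ± 0.18, adjusted p = 0.000244), and it passed with any 1 array left out. Without control replicate 1, 8 genes of the list were higher and 1 lower.

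Of 25 tested crosslinkers, membrane linkers and LIM proteins, 9 fell, 2 rose and 14 did not pass. Over all named genes tested 7.16% fell and 8.27% rose. The median of the list was -0.04 and ran from -0.09 to 0.00348 with 1 array left out. Crip2, a LIM protein, fell from 1642 and 2179 to 269.9 and 266.5 (-2.75 ± 0.16). The filament bundler Lcp1 fell from 391.0 and 444.0 to 44.6 and 67.9 (-2.60 ± 0.21). Pdlim1, a PDZ and LIM protein that binds alpha-actinin, fell from 674.4 and 517.5 to 89.4 and 90.6 (-2.52 ± 0.18), and Pdlim3 from 206.3 and 190.3 to 51.6 and 60.9 (-1.57 ± 0.18). These 4 genes passed with any 1 array left out. Ezr, ezrin, which ties filaments to the membrane, rose from 175.4 and 94.7 to 376.9 and 470.0 (1.59 ± 0.27), and its relative Rdx rose by 0.63 ± 0.15. Without cAMP replicate 1 the list counted 5 lower genes and without cAMP replicate 2 it counted 4, with Ezr and Rdx lost in both cases (adjusted p of Ezr 0.0518 and 0.0889). Of 18 muscle-type sarcomere genes 17 had a probe set and 4 were bright enough to test. Tnnc1, the slow and cardiac troponin C, fell from 47.4 and 40.9 to 14.2 and 18.5 (-0.90 ± 0.21), and its call was lost without any 1 array but control replicate 2.

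**Figure D5:**
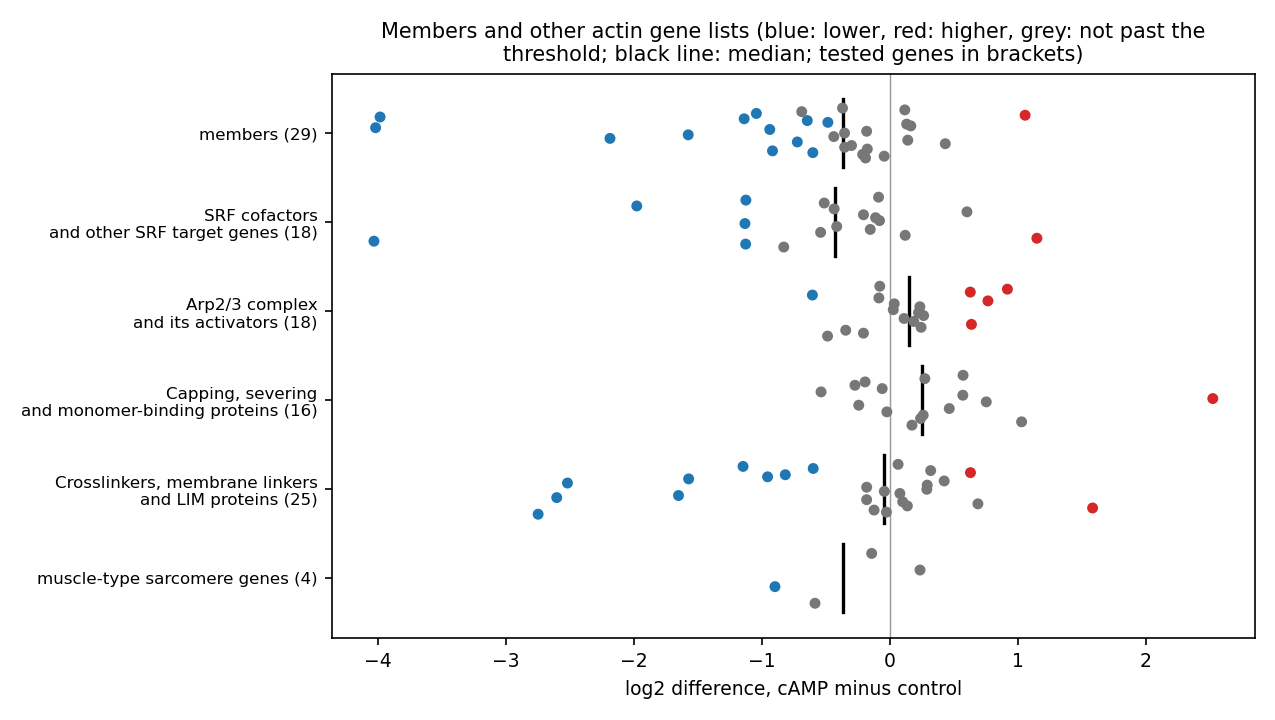
Log2 difference, cAMP minus control, of the tested members and of the tested genes on 5 further actin lists, 1 point per gene, with the median as a black line. The medians run from -0.42 for SRF cofactors and other SRF targets to 0.25 for capping, severing and monomer-binding proteins, and leaving out 1 array moves them to -0.25 and to 0.07.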

How the data were processed

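Biotin-labelled cRNA was hybridised to one-colour Affymetrix rat arrays, per the labels. The authors deposited 1 linear intensity for each probe set, and the submitters' processing notes name GCOS and MAS5 as the software. No version or setting of either is given in the sources used here. Each of the 4 arrays has a mean intensity of 125 once the lowest and highest 2% of signals are left out, and it was not normalized again. The number of arrays limits the precision.

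Of 31099 probe sets, 57 are controls, 20826 carry 1 platform symbol, 436 several and 9837 none. Members were matched on the platform symbol. Other genes were brought up to date through the RefSeq gene table of assembly GRCr8, which matched 20758 probe sets with 1 symbol. Probe sets other than controls with a mean log2(signal + 16) at or above the 40th percentile, 5.10, were tested, 18625 in all. The deposited signals were compared with limma 3.58.1 in R 4.3.3 (lmFit, eBayes with intensity trend, two-sided), with Benjamini-Hochberg adjustment over all probe sets tested and 0.05 as the threshold. The log2 scale with the pseudocount understates changes of dim genes. The fit was tested on simulated data.

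Members and lists were chosen with earlier results of these data known. All members are given. Of each further list the text names the genes past the threshold with the 4 smallest p in each direction, those that make up a count of at most 5, and a few others named as such. Mrtfa and the marker genes were chosen after their values were seen. The alternatives were 2 pseudocounts, 2 filters, quantile normalization, no intensity trend, robust eBayes, a replicate block, the mean of a gene's probe sets and leaving out each array. Protein identities were not analysed here, and 1 further gene list is not reported here.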

Additional observations from a re-analysis of the deposited data

How the results depend on the processing

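The count of members that fell, 12, stayed within 1.5 times of that value in 11 of 13 alternatives, and the median of the members was negative in all 13. Leaving out 1 array gave 5 to 14 members that fell and 0 to 2 that rose. The lowest counts came without a cAMP array: 6 fell and 0 rose by limma without cAMP replicate 1 (10 and 1 at an unadjusted p under 0.05), and 5 fell and 0 rose without cAMP replicate 2 (13 and 1). Without control replicate 1, 11 fell and 2 rose, Pfn1 being added, and without control replicate 2, 14 fell, with Cnn3 and Tpm4 added. With 1 array in a group, that array is assumed to vary like the others, and the spread comes from the 2 arrays of the other group. The median standard deviation over tested probe sets was 0.17 between control arrays and 0.11 between cAMP arrays. The members' median difference was -0.27 without cAMP replicate 1 and -0.49 without cAMP replicate 2. Without the filter on dim probe sets 8 fell, without the intensity trend 8, with Tpm2 added, and with the mean of a gene's probe sets 8. The calls of Espn (adjusted p = 0.0553 and 0.0583), Actn4 (0.0611 and 0.0640), Pfn2 (0.0803 and 0.113) and Synpo2 (0.122 and 0.0512) were lost without that filter and without the trend, that of Srf without the trend (0.0521), and that of Synpo2 with a pseudocount of 64 (0.0519). Of the 13 members called, 4 passed in all 13 alternatives, Tagln, Myoz2, Fhl2 and Myh10, and none of the 13 changed sign. Of the members not called, 7 changed sign in at least 1 alternative. Over all tested probe sets the deviations of same-numbered arrays correlated at 0.16. With the replicate number as a block 11 members fell and 1 rose, Pfn2 being lost. The labels do not say that a number marks a shared preparation. Signals near background limit the sizes given for Tagln, Myoz2 and Synpo2.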
